A study of Mus musculus with 42 samples.

Results

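Keratins and epidermal genes were followed through the first 120 h of differentiation of W9.5 mouse embryonic stem cells (129X1/SvJ background, passage 18) into embryoid bodies. The set held 10 genes of the 14296 in the files: the keratins Krt7, Krt8, Krt10, Krt13, Krt18 and Krt19, and Krtdap, Dmkn, Lor and Sfn. They were listed by name, because several of them rose sharply at 6 h, and all 10 were matched to the files by gene identifier. Their values at 0 h and 6 h are therefore given as a description without a test, and tests start at 12 h. This does not make later falls independent of the choice, because some of the genes were still above their 0 h level at 12 h. Poly-A RNA was sequenced every 6 h from 0 h to 120 h in biological duplicate, called replicates A and B, which gave 42 libraries over 21 time points. All libraries came from 1 unmodified cell line under 1 treatment, undirected differentiation begun at 0 h by withdrawal of LIF. The groups from 6 h on differed in time after that step, whereas 0 h was the undifferentiated culture at its start. A comparison with 0 h therefore spans the withdrawal of LIF as well as time. There was no undifferentiated culture kept alongside at the later times among the libraries analysed here.

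Keratins are the intermediate filament proteins of epithelial cells. A filament is built from pairs of a type I (acidic) and a type II (basic) chain, so a cell needs both kinds. Krt8 (type II) with Krt18 or Krt19 (type I) forms the network of simple, single-layered epithelia, including trophectoderm and extraembryonic endoderm, and Krt7 is a further type II keratin of simple and ductal epithelia. Krt10 marks the differentiating layers of the epidermis and Krt13 those of internal stratified epithelia such as the oesophagus. Krtdap and Dmkn encode small secreted proteins of differentiating keratinocytes, Lor (loricrin) encodes the main protein of the cornified envelope, and Sfn encodes 14-3-3 sigma, an adaptor protein enriched in epithelia and induced by p53.

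The 4 genes with at most 5 reads in each 0 h library were Krt13, Krtdap, Dmkn and Lor. They are shown first by their promoters, because each holds a match to TGANTCA. These are the letters of the AP-1 motif in a loose form, with any base (N) in the middle. The sequences are the 250 bases before the RefSeq start site on GRCm38.p6, 5′ to 3′ on the gene's strand, with matches to the AP-1 letters and to the TATA box letters TATAAA in capitals. Krt13 is at chr11:100121567-100121816 on the minus strand, Krtdap at chr7:30787655-30787904 on the plus strand, Dmkn at chr7:30763506-30763755 on the plus strand and Lor at chr3:92083143-92083392 on the minus strand.
Krt13: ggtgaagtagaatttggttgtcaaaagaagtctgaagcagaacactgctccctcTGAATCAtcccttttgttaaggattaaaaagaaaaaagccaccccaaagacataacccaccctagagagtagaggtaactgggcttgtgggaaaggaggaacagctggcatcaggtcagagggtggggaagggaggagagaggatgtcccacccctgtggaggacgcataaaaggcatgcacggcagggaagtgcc
Krtdap: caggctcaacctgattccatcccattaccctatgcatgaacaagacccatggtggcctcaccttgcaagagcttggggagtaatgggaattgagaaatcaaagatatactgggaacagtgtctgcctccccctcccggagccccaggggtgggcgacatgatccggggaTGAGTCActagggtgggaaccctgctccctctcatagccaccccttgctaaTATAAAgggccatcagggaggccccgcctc
Dmkn: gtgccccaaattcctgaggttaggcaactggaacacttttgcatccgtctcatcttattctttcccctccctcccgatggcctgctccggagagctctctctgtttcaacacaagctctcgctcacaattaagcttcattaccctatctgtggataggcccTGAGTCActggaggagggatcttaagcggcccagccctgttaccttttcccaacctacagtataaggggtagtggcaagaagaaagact
Lor: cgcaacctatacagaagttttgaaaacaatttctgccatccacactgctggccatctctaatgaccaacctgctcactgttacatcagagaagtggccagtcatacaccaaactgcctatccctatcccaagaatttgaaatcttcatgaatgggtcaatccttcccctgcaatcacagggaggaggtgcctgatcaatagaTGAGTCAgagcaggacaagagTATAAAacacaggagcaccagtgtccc

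The AP-1 match began at -196 in Krt13, -81 in Krtdap, -89 in Dmkn and -48 in Lor, counted from the start site. It read TGAATCA in Krt13 and TGAGTCA in Krtdap, Dmkn and Lor, so Krt13 matched through the loose middle base. Promoters were at hand for 9 of the 10 genes, and the search covered both strands of a window from 250 bases before to 50 bases after the start. The other 5 promoters held no AP-1 match, and 7.81% of the 32851 mouse promoters in the same table held at least 1. TATAAA was found at -30 in Krtdap, -27 in Lor and -26 in Krt10, and as 2 overlapping matches on opposite strands at -3 and -1 in Krt8, and in 13.6% of all promoters. GCCNNNGGC, the letters of the TFAP2 motif, was found at -83 in Krt18 and at -146 and -70 in Krt7, and in 16.6% of all promoters. AACNNGTT, the letters of the Grainyhead-like (GRHL) motif, was found at -184 in Sfn and in 4.2% of all promoters. Matches to different motifs did not overlap. The letters were chosen with the courses of the genes known, and a match describes the sequence only.

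All 10 genes were annotated as protein coding. Krt8 lay on chromosome 15 (101996698-102004482, minus strand, GRCm38) and Krt18 beside it (102028180-102032027, plus strand). Their start sites pointed away from each other, 23698 bp apart, with 0 genes of the files between. Krt7 lay on the same chromosome (101411043-101430313), in the type II cluster. Krt10 (99385254-99389364), Krt13 (100117327-100121566) and Krt19 (100140810-100148665) lay in the type I cluster of chromosome 11. Dmkn (30763756-30781063) and Krtdap (30787896-30791097) were neighbours on chromosome 7, Lor lay on chromosome 3 (92080271-92083142) and Sfn on chromosome 4 (133600556-133602168). Krt8, Krt7 and Krt10 each overlap a noncoding gene with no row in the files, and a processed pseudogene of Krt8 is annotated on chromosome 7. Whether strand was used in counting is not given in the sources used here, and reads from these sequences could not be told apart.

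The keratin family as a whole was sparse in these cells. Of 53 protein-coding keratin genes in the annotation, 11 had a row in the files, the 6 listed here and Krt16, Krt17, Krt20, Krt42 and Krt222. Of 10 genes fixed as markers of epidermal keratinocytes, only Krt10 and Lor had a row. Krt5, Krt14, Krt15, Krt1, Trp63, Dsg3, Ivl and Flg, which define the basal and suprabasal layers, had none, and the authors' filter removed genes that did not exceed 1 CPM in 2 or more samples. The word epidermal therefore describes where these genes are best known, and not a cell type measured in these cultures. Cells of a type becoming fewer and each cell holding less of an RNA cannot be told apart in bulk RNA.

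The values are log2 CPM, the reads of a gene scaled to the normalized library size, and the reads behind them were recovered from the files. The counted reads ranged from 10120972 to 51652434 per library, so that 3 reads, about the limit that a count of 0 allows, stood for 0.057 to 0.316 CPM. The 96 h duplicates stood furthest apart for Krt8, Krt19 and Sfn. At 96 h the summed level of 8 trophectoderm markers was 91.4 CPM in replicate A and 303 CPM in replicate B, and that of 6 pluripotency markers was 1140 and 1820 CPM. Results that rest on 96 h are given with each of its libraries left out. Without both 96 h libraries, the counts of genes past the threshold were the same for each comparison below that does not use 96 h, except for the count over 6 h steps.

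**Figure D1:**
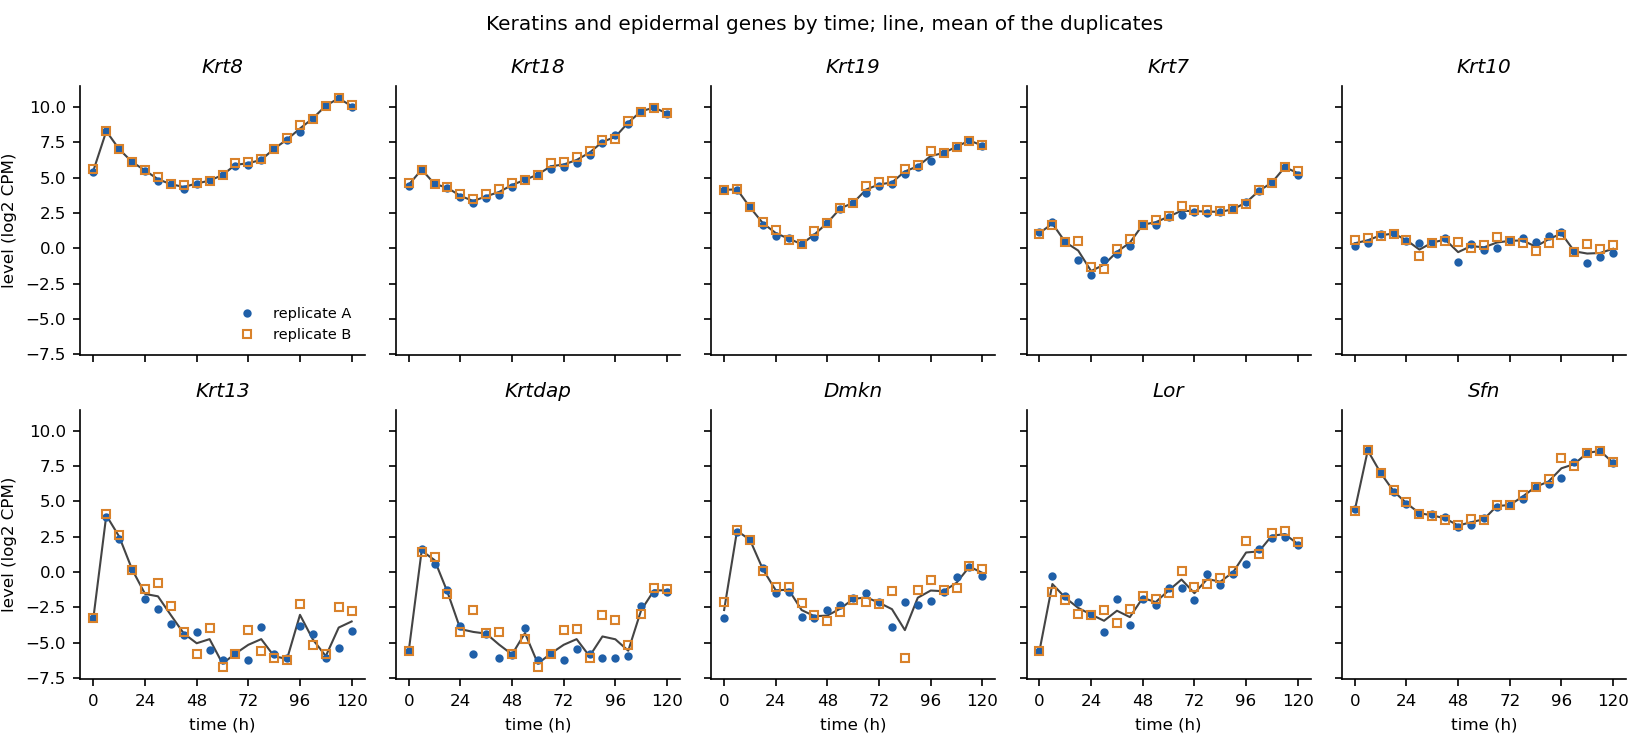
Level of each gene in log2 CPM (y axis) against time in hours (x axis), with replicate A as filled circles, replicate B as open squares and their mean as a line. Krt8, Krt18, Krt19, Krt7, Lor and Sfn reached their highest mean from 12 h on at 114 h, Krt13, Krtdap and Dmkn were highest at 6 h, and the mean of Krt10 stayed between -0.37 and 1.05.

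At 6 h the simple-epithelial pair and Sfn stood well above 0 h. Krt8 had 42.3 and 48.4 CPM at 0 h in replicates A and B, and 311 and 316 CPM at 6 h, a mean of 6.92-fold. Sfn had 21.7 and 20.3 CPM at 0 h and 387 and 389 CPM at 6 h, its highest mean of the course. Krt18 moved less, from 20.9 and 24.3 CPM to 48.5 and 46.6 CPM, a mean of 2.11-fold. In these 3 genes both 6 h libraries lay above both 0 h libraries. Krt19, the other type I partner of Krt8, had 17.6 and 17.7 CPM at 0 h and 17.1 and 18.8 CPM at 6 h, where the duplicates of both times overlap. Krt7 had 2.2 and 1.99 CPM at 0 h and 3.56 and 3.15 CPM at 6 h. Krt10 had 1.1 and 1.45 CPM at 0 h and 1.31 and 1.63 CPM at 6 h, again with overlap.

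The 4 genes that were at or near 0 reads at 0 h were counted at 6 h in both replicates. Krt13 had 2 and 2 reads at 0 h and 411 and 296 reads at 6 h. The ratio of levels was 176 in replicate A (95% counting interval 48.5 to 1460) and 208 in replicate B (57.1 to 1730). Dmkn had 2 and 5 reads at 0 h and 200 and 132 at 6 h, a ratio of 85.7 (23.4 to 713) and 37.1 (15.5 to 116). These intervals are exact and cover counting error only. Krtdap had 0 reads in both 0 h libraries and 84 and 45 reads at 6 h, at least 24.0-fold and 21.1-fold higher against a floor of 3 reads per library. Lor had 0 reads in both 0 h libraries and 22 and 6 reads at 6 h, at least 6.29-fold and 2.81-fold higher. Lor at 6 h was thus the thinnest of the 4, with its replicate B value close to the floor.

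From 12 h to 48 h, 6 of the 10 genes fell and none rose. Across all genes tested, 7.5% fell and 12.1% rose in the same comparison (limma, adjusted p under 0.0001). The genes were listed because several rose sharply at 6 h, and some were still above 0 h at 12 h. At 0 h Sfn had 21.7 and 20.3 CPM and Krt8 42.3 and 48.4 CPM. A fall from 12 h is thus not independent of the choice, and the share of all genes is given for scale only. Krt13 and Krtdap exceeded 1 CPM only in libraries of 18 h or before, 6 and 4 of them, and so entered the files only through times when they were high. Their fall is a description for that reason, and of the other 8 genes 4 fell. Sfn went from 126 and 131 CPM at 12 h to 9.31 and 10.2 CPM at 48 h, a 13.2-fold fall (log2 change -3.72, SE 0.23, adjusted p = 1.4e-13). Krt8 went from 129 and 128 CPM to 23.9 and 24.2 CPM, 5.34-fold lower (-2.42, SE 0.12, adjusted p = 4.69e-15). The duplicates of each time did not overlap in either gene. Krt19 went from 7.58 and 7.4 CPM to 3.52 and 3.48 CPM (-1.09, SE 0.18, adjusted p = 1.12e-05).

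Krt13, Krtdap and Dmkn fell to the floor of detection. Krt13 had 155 and 258 reads at 12 h and 1 and 0 reads at 48 h (log2 change -7.54, SE 0.97), at least 58.6-fold lower in replicate B. Krtdap had 45 and 87 reads at 12 h and 0 in both 48 h libraries (-6.67, SE 1.08), at least 14.2-fold and 19.8-fold lower. Dmkn had 148 and 198 reads at 12 h and 4 and 2 at 48 h (-5.36, SE 0.81, adjusted p = 3.52e-06). In all 3 the groups of reads were far apart, and the fitted log2 change of such a gene depends on the offset. With 1 of the 12 h libraries or 48 h replicate B left out, 3 of the 10 genes passed. Krtdap and Krt19 lost the call without any 1 of the 4 libraries, and Dmkn without either 12 h library or 48 h replicate B. Krt8, Krt13 and Sfn kept it in each case. For Krt13 and Krtdap a call kept or lost adds nothing, because the filter makes their fall a description.

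The other 4 did not pass from 12 h to 48 h. Krt18 had 23.9 and 23.2 CPM at 12 h and 20.4 and 24.2 CPM at 48 h (-0.08, SE 0.16, adjusted p = 0.716), with overlapping duplicates. Lor had 9 and 10 reads at 12 h and 7 and 8 at 48 h (adjusted p = 0.992). Krt10 had 1.95 and 1.81 CPM at 12 h and 0.488 and 1.35 CPM at 48 h, and Krt7 1.36 and 1.33 CPM at 12 h and 3.24 and 3.09 CPM at 48 h (log2 change 1.23, SE 0.28, adjusted p = 0.000754). The duplicates of Krt7 did not overlap, but its change missed the threshold.

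The keratins of simple epithelia did not turn at the same time. From 12 h to 24 h, 4 genes fell, Krt8 (-1.5), Krt19 (-1.83), Krt7 (-2.05) and Sfn (-2.13), against 0.853% of all genes that fell. As above, a fall from 12 h is not independent of the choice of the genes. Krt7 lost this call without either 12 h library or 24 h replicate A, and with voom precision weights or log2(CPM + 1). From 24 h to 48 h, Krt8 (-0.92) and Sfn (-1.59) went on falling while Krt7 rose, from 9 and 11 reads to 93 and 87 reads, 9.71-fold (3.28, SE 0.28, adjusted p = 6.75e-10). Over all genes 8.97% passed in that comparison, and without 24 h replicate B only the call for Krt7 was made. The lowest mean came at 24 h for Krt7, 30 h for Krt18, 36 h for Krt19, 42 h for Krt8 and 48 h for Sfn. For all but Krt7 both replicates had their lowest value from 12 h on at that time, and in Krt7 replicate B was lowest at 30 h. Whether these times differ between genes was not tested.

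From 48 h to 120 h, 6 of the 10 genes rose and none fell, where 14.2% of all genes rose and 11% fell. Krt8 went from 23.9 and 24.2 CPM at 48 h to 1030 and 1110 CPM at 120 h, 44.4-fold (log2 change 5.47, SE 0.12, adjusted p = 2.83e-22). Krt19 went from 3.52 and 3.48 CPM to 150 and 158 CPM, 43.8-fold (5.45, SE 0.18, adjusted p = 4.47e-19). Krt18 went from 20.4 and 24.2 CPM to 725 and 770 CPM, 33.6-fold (5.07, SE 0.16, adjusted p = 4.31e-19). In all of these the duplicates of the later time lay above those of the earlier one. Sfn went from 9.31 and 10.2 CPM to 206 and 220 CPM, 21.8-fold (4.45, SE 0.23, adjusted p = 3.63e-15). Krt7 went from 3.24 and 3.09 CPM to 36.0 and 44.7 CPM, 12.6-fold (3.66, SE 0.28, adjusted p = 2.47e-11). Lor was the only one of the 4 genes near 0 reads at 0 h that passed in this comparison, from 7 and 8 reads to 101 and 103 reads (3.82, SE 0.59, adjusted p = 4.07e-06). It exceeded 1 CPM only in 12 libraries of 66 h or later, so it entered the files through times when it was high, and its rise is a description. Of the other 9 genes 5 rose.

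The call for Lor was lost without 48 h replicate A (adjusted p = 0.000172) or without 120 h replicate B (adjusted p = 0.000191). Krtdap had 0 reads in both 48 h libraries and 10 and 10 at 120 h, at least 3.46-fold and 3.88-fold higher, and Dmkn had 4 and 2 reads and then 22 and 27. Their fits missed the threshold (Krtdap 4.53, adjusted p = 0.000849; Dmkn 3.03, adjusted p = 0.0024). Both had stayed at 17 reads or fewer in each library from 30 h to 102 h. Krt13 had 1 and 0 reads at 48 h and 1 and 3 at 120 h, and Krt10 had 0.488 and 1.35 CPM and then 0.797 and 1.16 CPM (0.24, SE 0.41, adjusted p = 0.643).

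**Figure D2:**
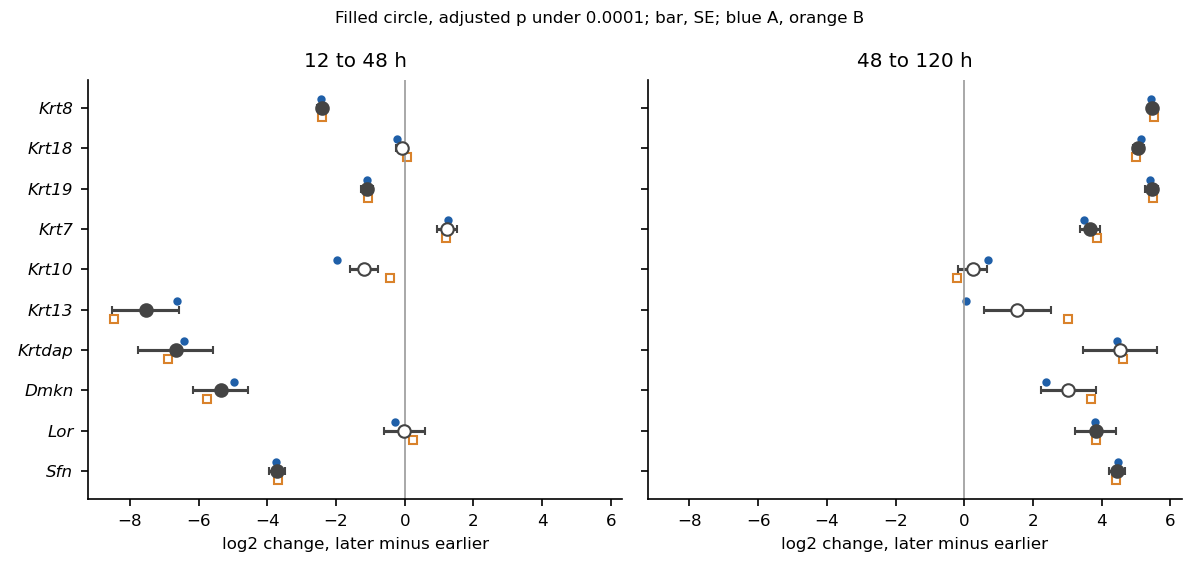
Log2 change, later minus earlier (x axis), of each gene (y axis) from 12 h to 48 h and from 48 h to 120 h, with the fitted change and its SE as a circle and bar, filled where the adjusted p is under 0.0001, and the change within replicate A (small circles) and B (open squares). The 6 filled circles on the left lie below 0 and the 6 on the right above it. Those of Krt13 and Krtdap on the left and of Lor on the right are a description.

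The late rise of Krt8 and Krt18 was spread over the span, as both passed in each part of it given here. The other genes did not pass in every part, and Lor passed in none. From 48 h to 72 h, 4 genes rose, Krt8 (1.43), Krt18 (1.46), Krt19 (2.71) and Sfn (1.46), against 5.6% of all genes. Sfn lost this call when any 1 of the 4 libraries was left out and with voom precision weights, and the other 3 kept it. The same 4 passed from 72 h to 96 h, against 2.39% of all genes, with Krt8 at 2.46, Krt18 at 1.95, Krt19 at 2.01 and Sfn at 2.59, and the same 4 passed without either 96 h library. From 96 h to 120 h, Krt8 (1.59), Krt18 (1.66) and Krt7 (2.09) passed, against 1.25% of all genes, while Krt19 (0.74, adjusted p = 0.00477) and Sfn (0.4, adjusted p = 0.231) did not. Without 96 h replicate B, Krt7 no longer passed and Sfn did, and without either 120 h library Krt8 and Krt18 alone passed. At 96 h Sfn had 99.3 CPM in replicate A and 262 CPM in replicate B, Krt19 73.5 and 116 CPM, Krt8 294 and 431 CPM, and Lor 1.47 and 4.54 CPM. Replicate B was the higher in each of these 4, whereas Krt18 had 256 and 218 CPM and Krt7 9.94 and 8.89 CPM. Over any change from 12 h to 120 h, 9 of the 10 genes passed, all but Krt10 (adjusted p = 0.0175), where 67.6% of all genes passed, and the 9 include Krt13, Krtdap and Lor, which entered the files only through times when they were high.

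Few single steps of 6 h passed. Over the 18 steps from 12 h to 120 h the 10 genes gave 2 calls, both of Krt8, which fell from 12 h to 18 h (-0.89, SE 0.12, adjusted p = 3.54e-05) and rose from 102 h to 108 h (0.89, SE 0.12, adjusted p = 1.05e-05). Over all genes and steps 0.266% of the tests passed. The count was 12 without 96 h replicate A, 11 without 96 h replicate B and 10 without both, and 1 when any 1 library of 12 h, 18 h, 102 h or 108 h was left out. The duplicates of Krt8 were close, with a median SD of 0.04 (log2) and a largest SD of 0.39 at 96 h. For Sfn the median SD was 0.09 and the largest 0.99, also at 96 h. Krt13 (median 0.52) and Dmkn (0.34) varied more between duplicates, at a few reads per library.

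Recovery of the 6 h level differed among the genes. Both replicates were first at or above their own 6 h level again at 60 h for Krt7, 72 h for Krt18 and Krt19, 78 h for Lor and 102 h for Krt8. Sfn reached 375 and 383 CPM at 114 h, below its 387 and 389 CPM at 6 h, and the 3 genes Krt13, Krtdap and Dmkn did not come back to their 6 h level in both replicates at any later time. At 114 h Krt8 had 1570 and 1580 CPM, Krt18 1020 and 967 CPM and Krt19 200 and 196 CPM. These were the highest levels of each, and all 3 were lower again at 120 h.

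The order of the genes was compared per kilobase of exon. At 0 h Krt8 was highest (21.6 and 24.7 CPM per kb), followed by Krt18 (14.6 and 16.9), Sfn (13.4 and 12.6) and Krt19 (9.47 and 9.55), and no neighbours among these 4 overlapped. At 6 h Sfn (240 and 241 CPM per kb) stood above Krt8 (159 and 161) and Krt18 (33.7 and 32.4), while Krt19 (9.24 and 10.1) and Krt13 (8.19 and 9.48) overlapped. At 48 h Krt18 (14.2 and 16.8 CPM per kb) was above Krt8 (12.2 and 12.4), Sfn came next, and Krt7 and Krt10 overlapped at less than 1 CPM per kb. That overlap depends on the length used, a union of exons of 7049 bp for Krt7 and 2114 bp for Krt10. Before division by length, Krt7 had 3.24 and 3.09 CPM at 48 h and Krt10 0.488 and 1.35 CPM. At 120 h Krt8 (527 and 566 CPM per kb) and Krt18 (505 and 536) overlapped at the top, above Sfn (128 and 136) and Krt19 (80.9 and 85.1). Krtdap (0.533 and 0.608), Krt10 (0.377 and 0.547) and Dmkn (0.364 and 0.509) were close at this time, each overlapping the next in the order. Krt13 was last at 120 h, at 0.0199 and 0.068 CPM per kb.

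Because type I and type II chains pair, the ratio of their RNA was followed as well. Krt8 over Krt18 per kilobase was 1.48 and 1.46 in replicates A and B at 0 h, 4.7 and 4.98 at 6 h and 3.96 and 4.05 at 12 h. It then fell to 0.858 and 0.735 at 48 h and stood at 1.04 and 1.06 at 120 h. The ratio per kilobase was thus furthest from 1 in the first hours and near 1 at the end, as a description of these libraries. How near it is to 1 depends on the lengths used, 1958 bp for Krt8 and 1437 bp for Krt18. Before division by length, Krt8 had 1030 and 1110 CPM at 120 h and Krt18 725 and 770 CPM. At 96 h the replicates differed, with 0.842 in A and 1.45 in B. Summed over the 2 type II and 8 type I genes of the files, type II over type I was 0.481 and 0.503 at 0 h, 1.79 and 1.77 at 6 h, 0.709 and 0.595 at 48 h and 0.903 and 0.916 at 120 h.

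**Figure D3:**
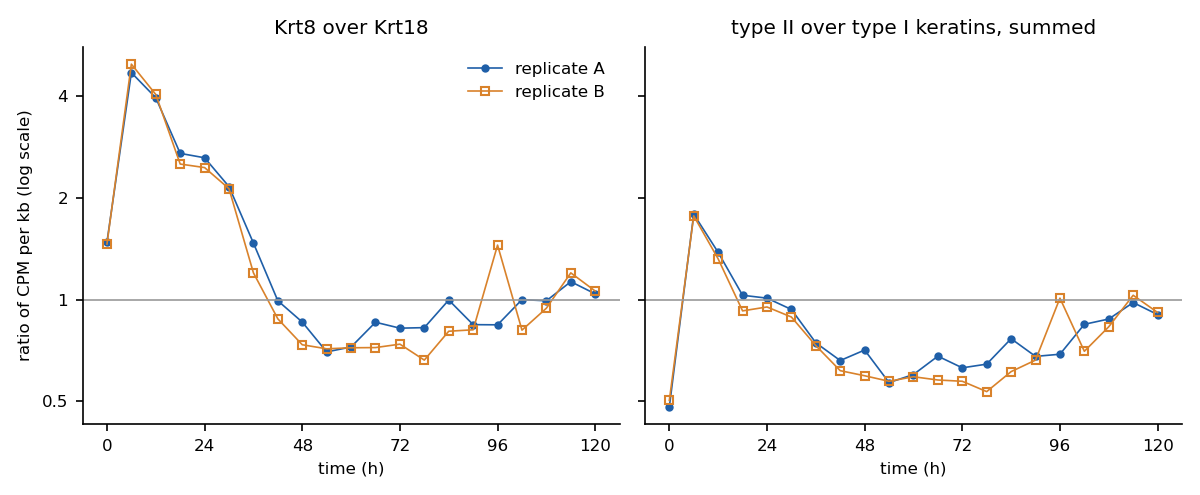
Ratio of Krt8 to Krt18 and of summed type II to summed type I keratins, in CPM per kilobase on a log scale (y axis), against time in hours (x axis), for replicates A and B. Both ratios are highest at 6 h, and the open square at 96 h lies above its neighbours in each.

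The make-up of the type I pool changed over the same hours. At 6 h Krt18 made up 37.9% and 35.5% of the type I RNA per kilobase, Krt17 28.1% and 28.5%, Krt42 11.9% and 12.3%, Krt19 10.4% and 11.1% and Krt13 9.2% and 10.4%. Krt17 is a type I keratin of hair follicles and injured skin, and Krt42 a type I keratin of the nail unit. At 120 h Krt18 held 85.6% in both replicates and Krt19 13.7% and 13.6%, while Krt17 and Krt42 held 0.214% to 0.278% each. Krt8 made up 98.6% and 98.9% of the type II RNA at 0 h and 99.0% and 98.9% at 120 h. This share and the type II sum rest on a union of exons of 7049 bp for Krt7 and 1958 bp for Krt8. A shorter length for Krt7 would lower the share of Krt8.

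Of the 5 further keratins of the files, 3 fell from 12 h to 48 h and none passed from 48 h to 120 h. Over all genes, 7.5% fell in the first span and 25.2% passed in the second. Krt17 went from 23.2 and 23.2 CPM to 0.698 and 1.14 CPM (-4.68, SE 0.42, adjusted p = 3.56e-10), after 13.8 and 15.9 CPM at 0 h and 38.9 and 40.4 CPM at 6 h. Krt16, the usual partner of Krt6 in stressed skin, had 23 and 33 reads at 12 h and 0 and 1 at 48 h (-4.7, adjusted p = 2.06e-05). Krt42 fell from 13.7 and 17 CPM to 1.74 and 2.52 CPM (-2.85, adjusted p = 4.8e-05), and was no higher at 6 h (18.8 and 19.8 CPM) than at 0 h (20.5 and 21.3 CPM). Krt20, a keratin of gut and bladder epithelium, had 2 and 0 reads at 48 h and 41 and 34 at 120 h (5.22, SE 1.21, adjusted p = 0.000622). It exceeded 1 CPM only at 108 h, 114 h and 120 h. Krt20 thus entered the files through times when it was high, and its rise is a description. Krt16, Krt17 and Krt42 are close relatives whose reads could be split in counting, and their values are uncertain to that extent. The median log2 change of the 5 was -2.85 from 12 h to 48 h and 1.34 from 48 h to 120 h.

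Dmkn and Krtdap lie in a row with Sbsn (suprabasin), a further secreted keratinocyte protein, on chromosome 7. The start sites of Sbsn and Dmkn were 12285 bp apart and those of Dmkn and Krtdap 24140 bp, all on the plus strand. Sbsn had 9.15 and 8.76 CPM at 0 h and 3.3 and 3.73 CPM at 6 h, so that it was lower at the time when its neighbours were highest. It fell further from 12 h to 48 h (-1.91, SE 0.27, adjusted p = 1.18e-06) and rose from 48 h to 120 h, from 22 and 18 reads to 206 and 173 reads (3.35, SE 0.27, adjusted p = 4.67e-11).

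**Figure D4:**
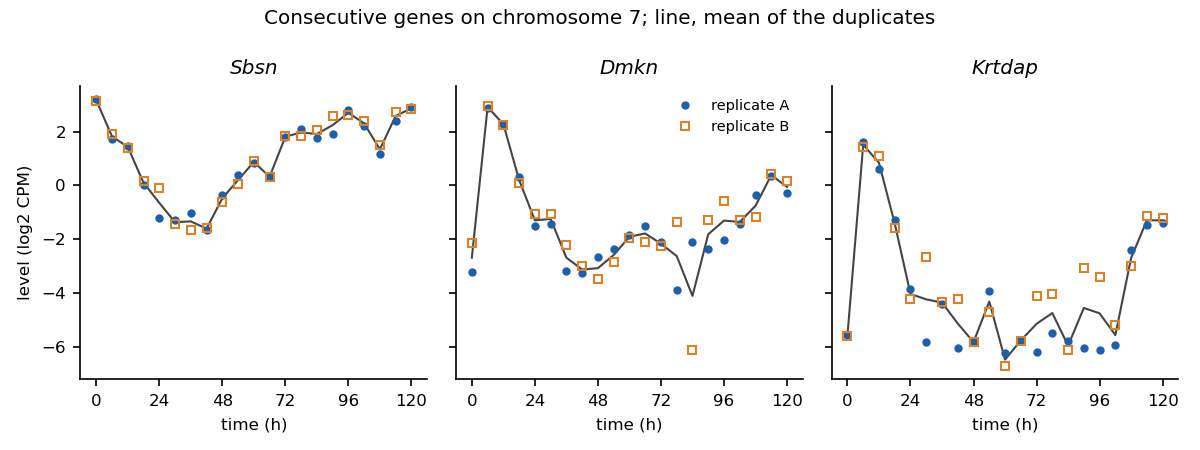
Level in log2 CPM (y axis) of the consecutive genes Sbsn, Dmkn and Krtdap against time in hours (x axis), with replicates A and B as points and their mean as a line. Dmkn and Krtdap are highest at 6 h, whereas Sbsn is highest at 0 h.

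Other genes of keratin biology were read from lists chosen by function. Which genes of these lists, and of the marker lists below, entered the files only through times when they were high was not checked. The counts may include such genes. Across all genes, 12.1% rose and 7.5% fell from 12 h to 48 h, and 14.2% rose and 11% fell from 48 h to 120 h. Of 45 genes of the cornified envelope and skin barrier, 16 had a row in the files, of which 1 rose and 5 fell from 12 h to 48 h, and 8 rose and none fell from 48 h to 120 h (list medians -0.55 and 1.6). Anxa1 (annexin A1) rose by 4.41 on the log2 scale from 48 h to 120 h (adjusted p = 1.41e-13), Plet1, a surface protein of trophoblast and hair follicle progenitors, by 3.13 (adjusted p = 1.83e-07), and Scel (sciellin), an envelope protein, by 6.82 (adjusted p = 5.33e-06). Scel is another gene near the floor at 48 h, with a mean level of -5.83 log2 CPM. Its means at 0 h, 6 h and 12 h were -3.62, -3.86 and -5.35 log2 CPM, so its rise is given as a description. With each library held at no less than 3 reads the list medians were -0.37 and 1.62.

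Of 21 genes of desmosomes and keratin linkers, 16 had a row, with 2 rising and 7 falling from 12 h to 48 h, and 8 rising and none falling from 48 h to 120 h (medians -1.06 and 0.82). The shares of all genes were 12.1% rising and 7.5% falling, and then 14.2% rising and 11% falling. Dsp (desmoplakin), which ties keratin filaments to the desmosome, fell by 1.3 on the log2 scale (adjusted p = 1.29e-05) and then rose by 4.58 (adjusted p = 7.59e-16). Its mean level was 5.45 log2 CPM at 0 h and 6.7 at 6 h. Perp, a desmosomal membrane protein induced by p53 and p63, fell by 2.02 and then rose by 2 on the log2 scale (adjusted p = 3.53e-11 and 5.03e-11), and stood at 4.85 log2 CPM at 0 h and 7.26 at 6 h. Dsc2 (desmocollin 2), an adhesion protein of the desmosome, went the other way in the first span, rising by 2.62 from 12 h to 48 h (adjusted p = 8.39e-11) and by 2.65 from 48 h to 120 h (adjusted p = 7.82e-11). Dst (dystonin), a linker at hemidesmosomes, rose by 1.58 from 48 h to 120 h (adjusted p = 6.7e-05).

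Of 30 regulators of epidermal transcription, 23 had a row, with 4 rising and 5 falling from 12 h to 48 h, and 13 rising and 2 falling from 48 h to 120 h (medians -0.43 and 1.31). For this list and the next, the shares of all genes were 12.1% rising and 7.5% falling, and then 14.2% rising and 11% falling. Gata3 rose by 6.88 (adjusted p = 1.01e-09), Msx2 by 6.25 (adjusted p = 6.37e-12), Tfap2c by 6.13 (adjusted p = 1.06e-17) and Maf by 5.92 (adjusted p = 3.83e-08) on the log2 scale from 48 h to 120 h. Maf had means of -5.58, -2.24, -4.19 and -3.63 log2 CPM at 0 h, 6 h, 12 h and 48 h. Msx2 had means of -0.64, -0.02, -0.63 and -2.37 log2 CPM at these times. The rises of Maf and Msx2 are therefore given as a description. Gata3 and Tfap2c act in trophectoderm as well as in skin. Among 24 genes of simple epithelia, 14 rose and 1 fell from 12 h to 48 h, and 10 rose and 1 fell from 48 h to 120 h (medians 0.98 and 0.62), whereas Krt8 and Krt19 fell in the first span. Cldn4, a tight junction protein, fell by 0.81 (adjusted p = 9.49e-07) and then rose by 2.59 (adjusted p = 1.34e-16). Cldn3 rose by 2.12 and Tjp3, a tight junction scaffold, by 2.08 from 48 h to 120 h (adjusted p = 1.71e-09 and 6.56e-11).

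**Figure D5:**
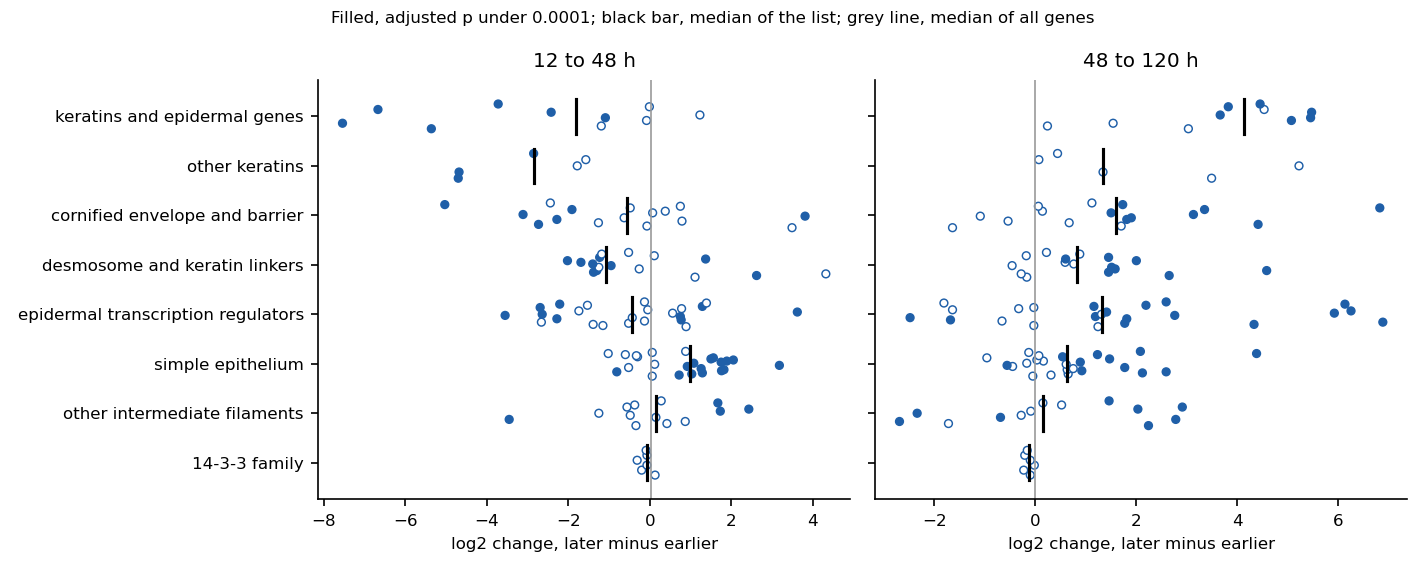
Log2 change, later minus earlier (x axis), of the genes of each list (y axis) from 12 h to 48 h and from 48 h to 120 h, with points filled where the adjusted p is under 0.0001, a black bar at the list median and a grey line at the median of all genes. The 14-3-3 genes lie close to the grey line in both spans, and the filled points of the keratins and epidermal genes, which were chosen with their courses known, lie below 0 on the left and above 0 on the right.

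Markers of other cell types moved over the same times, and their part in the results was not tested. Of 11 trophectoderm markers, 9 had a row, and Elf5 and Plac1 had none. Rows were missing for Sox17, Ttr, Afp and Apoa1 of 13 primitive and visceral endoderm markers. The same held for Thbd and Srgn of 6 parietal endoderm markers, Upk3b and Upk1b of 5 mesothelium markers and Lum of 8 fibroblast markers. The sum of the 8 trophectoderm markers other than Krt7 was 68.3 and 63 CPM at 0 h and 192 and 173 CPM at 6 h. It was 25.4 and 24.7 CPM at 48 h and 147 and 149 CPM at 120 h. Tead4 made up most of it at 6 h, with a mean of 4.93 log2 CPM at 0 h and 7.23 at 6 h. Cdx2 (-4.17 and 0.66), Gata3 (-3.99 and 0.15), Gata2 (-0.09 and 0.54) and Eomes (3.74 and 3.89) also had higher means at 6 h. Tfap2c (3.87 and 3.47), Hand1 (-1.77 and -2.63) and Ascl2 (2.54 and 1.11) were lower at 6 h than at 0 h. Tfap2c was the highest of these markers at 120 h (6.4 log2 CPM). None of the markers of this list that had a row was at 0 reads in both libraries of a time point. Of its 9 genes with a row, 6 rose from 48 h to 120 h, among them Hand1 (4.27) and Gata2 (3.85). Hand1 had means of -1.71 log2 CPM at 12 h and -2.29 at 48 h, so its rise is given as a description. Of all genes, 14.2% rose and 11% fell in this span. The sum of 4 parietal endoderm markers was 333 and 313 CPM at 0 h, 523 and 524 CPM at 6 h, 274 and 269 CPM at 48 h and 854 and 823 CPM at 120 h, and 3 of the 4 rose from 48 h to 120 h, including Sparc (2.73). The sum of 9 primitive and visceral endoderm markers was 12.6 and 14.1 CPM at 0 h, 14.6 and 15.3 CPM at 6 h and 46.4 and 48.3 CPM at 120 h, with 4 of 9 rising. The sum of 7 fibroblast markers was 24.3 and 28 CPM at 0 h, 12.3 and 11.9 CPM at 6 h and 178 and 163 CPM at 120 h, with Col3a1 and Postn at 0 reads at 6 h, and 4 of the 7 rose from 48 h to 120 h. This sum was lower at 6 h than at 0 h. The sum of 3 mesothelium markers was 15.6 and 15.5 CPM at 6 h and 58 and 59.8 CPM at 120 h, with 2 rising and 1 falling from 48 h to 120 h. The 6 pluripotency markers summed to 3400 and 3670 CPM at 0 h, 4190 and 4300 CPM at 6 h, 1660 and 1810 CPM at 48 h and 1580 and 1530 CPM at 120 h, with 3 rising and 1 falling in the last of these spans.

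The genes with courses most like each one were ranked by the smaller of the Pearson correlations within replicate A and within replicate B over 21 time points. These values describe courses that share libraries and a slow trend, and carry no test. Krt8 was nearest to Vgll3 (0.973), Csrp1 (0.97) and Cited1 (0.968), and Krt18 to Plin2 (0.99), Endod1 (0.985) and Parva (0.985). Krt19 was nearest to Anxa5 (0.976), Krt7 to Lsp1 (0.954) and Lor to Creb3 (0.95). Sfn was nearest to Krt8 (0.947), another gene of the set, and Krtdap and Dmkn to each other (0.869). Krt13 was nearest to Trim41 (0.908), and Krt10 was nearest to Efcab12, at 0.604 only. Within the set, Krt18 and Krt19 were at 0.95, Krt8 and Krt18 at 0.91, and Krt13 and Krtdap at 0.71, whereas Krt13 and Krt7 were at -0.45.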

How the data were processed

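RNA was sequenced as stranded poly-A libraries (paired-end, 100 bp) at 21 time points in duplicate. The authors used Trim Galore! for trimming, Tophat2 for alignment to mm10 and HTSeq for counting on GENCODE vM2. They dropped genes that did not exceed 1 CPM in 2 or more samples, then applied edgeR normalization and voom. Versions are not given in the sources used here. The deposited values are log2 CPM with an offset of 0.5 reads. Inverting this formula gave whole reads to within 2.91e-08 of a read, with a median of 29692082 reads per library. Voom on those reads with the same library sizes returned the deposited values, which follows from the inversion and is no further check.

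Gene identifiers were matched to GENCODE vM21 (GRCm38), 14177 of 14296 with success. Promoters were from RefSeq (GRCm38.p6). Levels per kilobase used the union of exons. The deposited log2 values were fitted with limma 3.58.1 (R 4.3.3), with time as a factor of 21 levels over all 42 libraries (residual degrees of freedom 21, eBayes with a trend). P-values were adjusted by Benjamini-Hochberg over all genes within a contrast, with a threshold of 0.0001, as in the study. The steps were tested on simulated data. Python 3.11.15 was used for the rest. Replicates were taken from the labels, and p-values measure the spread between duplicates, averaged over time points.

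The genes, lists and motifs were chosen with earlier results of these data known. Named beside the 10 genes were the other keratins with the highest levels, from each list 4 genes with the largest change from 48 h to 120 h of the same sign in both replicates, and for each gene those with the most similar courses. Sbsn was followed further for its place beside Dmkn, chosen after its values were seen. Alternatives were a replicate block, no trend, voom precision weights, quantile normalization, log2(CPM + 1), a filter on a mean log2 CPM of at least 0, an adjusted p under 0.05 and each library left out. Leaving out both 96 h libraries was added after seeing the data. No protein sequence was used here. Some of the genes that the rule named are not reported here.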

Additional observations from a re-analysis of the deposited data

How the results depend on the processing

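At an adjusted p under 0.05 the counts of genes past the threshold were 8 from 12 h to 24 h (19% of all genes), 6 from 24 h to 48 h (29.9%), 5 from 96 h to 120 h (17.8%) and 31 over the 6 h steps (4.61%). With only genes of a mean log2 CPM of at least 0, which leaves 6 of the 10, 3 passed from 12 h to 48 h and 5 over any change. The count over the 6 h steps, 2 as reported, was 6 with a replicate block, 1 without a trend, 5 with voom precision weights, 0 with quantile normalization, 6 with log2(CPM + 1) and 10 without both 96 h libraries. Leaving out 1 library gave 1 to 12 for these steps, 1 to 3 from 24 h to 48 h and 3 to 4 from 12 h to 48 h. Deviations of same-letter libraries were weakly correlated on average (mean 0.0795 over 210 pairs of time points, lowest -0.474, 47.1% over 0.1). The paper describes the replicates as duplicate time courses, and a weak mean cannot show that same-letter libraries are unrelated. Over all genes, the replicate block raised the calls from 455 to 571 from 12 h to 24 h. From 48 h to 120 h it raised them from 3602 to 4113. For the 10 genes, the replicate block changed no count other than that over the 6 h steps by over 1.5 times.

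Some changes that missed the threshold turned sign. From 12 h to 48 h Krt18 was at 0.04 without 48 h replicate A (range over single libraries left out -0.2 to 0.04), and Lor at 0.01 with voom precision weights and at 0.15 without 12 h replicate A and 0.09 without 48 h replicate A (range -0.16 to 0.15). From 48 h to 120 h Krt10 was at -0.36 with quantile normalization and at -0.48 and -0.03 without 48 h replicate A and 120 h replicate B (range -0.48 to 0.95), and Krt13 at -0.42 with quantile normalization. Krt19 lost its call from 12 h to 48 h with voom precision weights (adjusted p = 0.000736), and Lor from 48 h to 120 h with quantile normalization (adjusted p = 0.000114). Krtdap passed from 48 h to 120 h with voom precision weights (adjusted p = 4.12e-05) and Dmkn with log2(CPM + 1) (adjusted p = 2.32e-05). The cause was not tested. Depth limits Krt13, Krtdap, Dmkn and Lor, which had 20 reads or fewer in most libraries, so that a change at these levels may not be detectable.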

Other observations

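Among 13 other intermediate filament genes in the files, 3 rose and 1 fell from 12 h to 48 h, and 5 rose and 3 fell from 48 h to 120 h, where 12.1% rose and 7.5% fell and then 14.2% rose and 11% fell among all genes, with a list median of 0.15 in both spans. Lmna, which encodes the nuclear lamins A and C, was higher at 6 h (8 log2 CPM) than at 0 h (5.76) and stood at 3.36 at 48 h, before 6.14 at 120 h. It fell by 3.45 on the log2 scale from 12 h to 48 h (adjusted p = 8.88e-18) and rose by 2.78 from 48 h to 120 h (adjusted p = 8.02e-16). Nes (nestin), a filament of neural progenitors, rose by 2.91 from 48 h to 120 h (adjusted p = 6.58e-14), whereas the neuronal filaments Ina (-2.69, adjusted p = 5.37e-09) and Nefh (-2.34, adjusted p = 1.38e-05) fell.

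Sfn belongs to the 14-3-3 family. Of the other 6 members, which are expressed in most cells, none passed from 12 h to 48 h or from 48 h to 120 h, with medians of -0.08 and -0.13. Over all genes, 19.6% and 25.2% passed in these spans. Ywhae changed by -0.2 (adjusted p = 0.241) and -0.23 (adjusted p = 0.161). Whether Sfn differed from them was not tested.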
